A study of Mus musculus with 6 samples.

Results

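The 33 genes described here serve protein folding in the endoplasmic reticulum (ER) and the stress response of that organelle, and they were chosen by gene symbol from the 46603 genes of the count tables. Each symbol matched 1 Ensembl gene, and all 33 genes had enough counts to be tested. RNA had been sequenced from the enamel organ of the mouse lower incisor, the epithelial tissue that holds the enamel-forming ameloblasts. The Stim1/2 knockout (DKO) is represented by 3 libraries, numbered 1, 3 and 4, and the wild type (WT) by 3 libraries, numbered 1, 2 and 3; all mice were C57BL/6 and no treatment is named. The labels give no age, no driver of the deletion and no statement that the replicates came from separate animals, so each p-value covers the variation between libraries alone. The series title asks what store-operated calcium entry does in ameloblasts; STIM1 and STIM2 sense calcium in the ER lumen and open plasma membrane channels when that store runs low.

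The ER folds secreted and membrane proteins with chaperones that themselves bind calcium, and a secretory cell such as the ameloblast carries a heavy folding load. Unfolded proteins activate 3 sensors in the ER membrane. ATF6 travels to the Golgi, is cut, and its freed part switches on chaperone genes; IRE1 (gene Ern1) removes a short intron from Xbp1 mRNA so that the factor XBP1 is made; and PERK (gene Eif2ak3) slows translation, which favours the factor ATF4 and its targets. By these routes the genes were placed in an ATF6 arm of 11 genes, an IRE1-XBP1 arm of 11 genes and a PERK-ATF4 arm of 9 genes, with Canx and Pdia3 in no arm. Of these genes 6 are known to answer to more than 1 arm (Herpud1, Sel1l, Dnajb11, Dnajc3, Pdia6 and Derl3) and stand in the arm best known for them.

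None of the 33 genes passed the edgeR quasi-likelihood test at an adjusted p below 0.05 (0 of 33), against 1.04% of all 14721 tested genes. At an unadjusted p below 0.05 there were 7 genes, all with a higher mean in DKO (Derl3, Creld2, Sdf2l1, Eif2ak3, Hsp90b1, Pdia6 and Asns), where 8.67% of all tested genes had such a p and a higher DKO mean. No gene had an unadjusted p below 0.05 with a lower mean in DKO, against 9.37% of all tested genes. The log2 fold change, DKO over WT, was above 0 for 26 of the 33 genes, as for 48.7% of all genes, and its median was 0.17 over the 33 genes and -0.01 over all. The DESeq2 Wald test called 1 of the 33, Derl3, where it called 5.52% of all genes, and limma on log2(FPKM + 1) called 0, where it called 0.576% of all genes. For 25 of the 33 genes the log2 fold change was smaller than 0.25 in size, and only Derl3 and Chac1 differed by 1.5-fold or more.

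**Figure D1:**
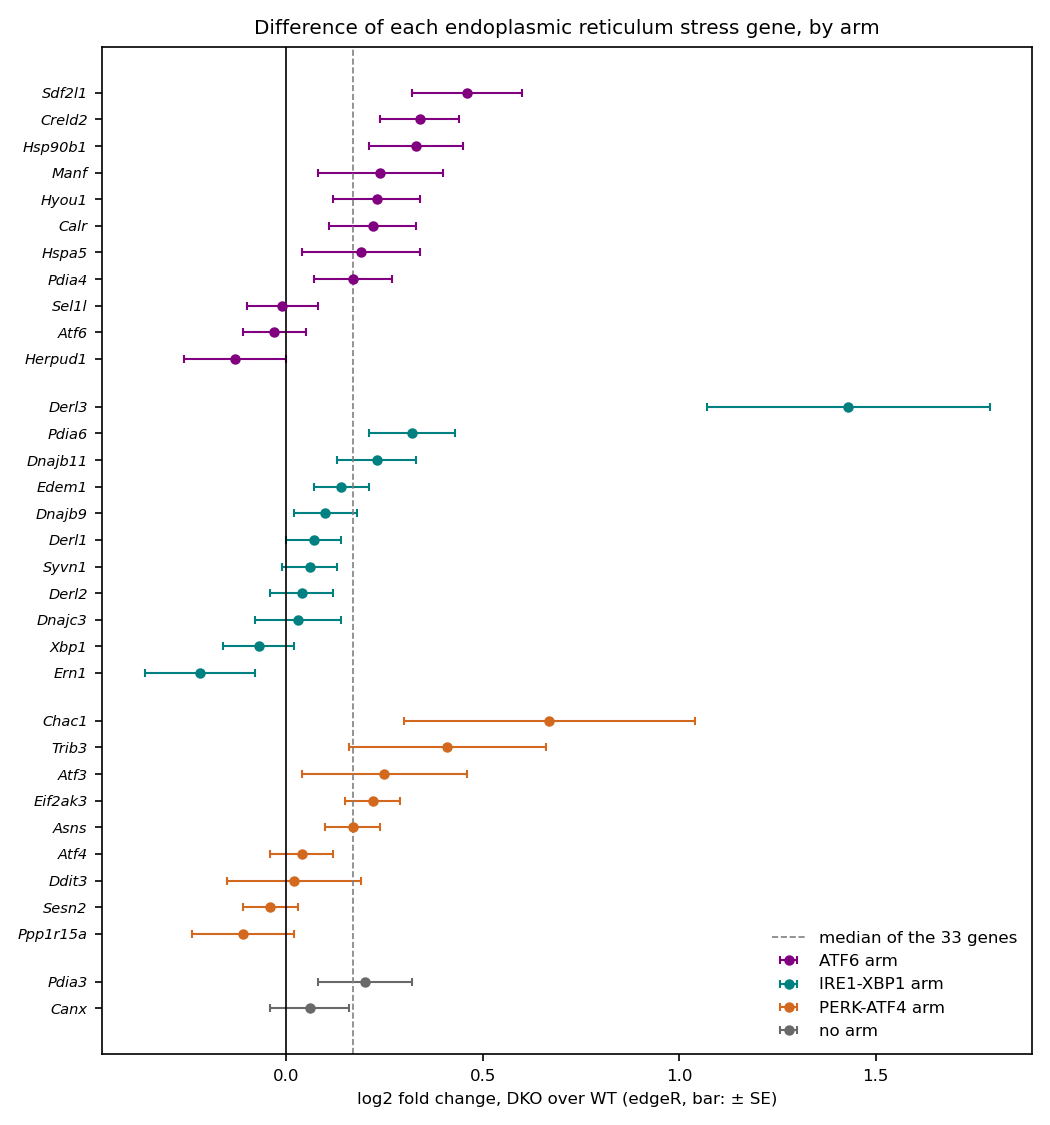
Log2 fold change of each of the 33 genes, DKO over WT, with its standard error (bar) from edgeR, grouped by arm. The dashed line is the median of 0.17; Derl3 stands apart at 1.43, and the 7 sensor and factor genes lie between -0.22 for Ern1 and 0.25 for Atf3.

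The promoters of these genes were searched for the sequences by which the response is known to act. The ER stress response element (ERSE) is the letters CCAAT, 9 bases of any kind and CCACG; in mammals the first part is bound by NF-Y and the second by ATF6 or XBP1. In the RefSeq promoter table (GRCm38.p6), 29 of the 33 genes had an entry, and the 250 bases before the transcription start were searched on both strands. An ERSE stood in 9 of these 29 genes (31.0%), and in 37 of the 32851 promoters of the table (0.113%). Shares over that table, here and below, count promoters rather than genes and include the 30 promoters of these 29 genes. The element was searched because it is known for this response, so its larger share among these genes is no independent finding. The ERSE sites are shown because their carriers include the chaperones Hspa5, Hsp90b1, Calr and Canx, beside the degradation genes Syvn1 and Derl3. The sequences run 5′ to 3′ along the gene, with the half-sites in capitals, so a site on the other strand reads CGTGG, 9 bases and ATTGG.
Hspa5 (chr2:34772010-34772058, plus strand): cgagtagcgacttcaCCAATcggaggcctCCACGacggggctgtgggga
Hsp90b1 (chr10:86705623-86705671, minus strand): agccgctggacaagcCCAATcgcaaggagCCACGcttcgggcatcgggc
Hsp90b1 (chr10:86705518-86705566, minus strand): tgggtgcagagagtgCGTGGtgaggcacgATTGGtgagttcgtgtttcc
Calr (chr8:84847060-84847108, minus strand): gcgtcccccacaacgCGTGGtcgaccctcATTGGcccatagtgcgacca
Canx (chr11:50325785-50325833, minus strand): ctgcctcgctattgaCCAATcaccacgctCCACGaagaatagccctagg
Pdia6 (chr12:17266476-17266524, plus strand): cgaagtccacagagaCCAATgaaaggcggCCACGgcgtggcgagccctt
Creld2 (chr15:88819505-88819553, plus strand): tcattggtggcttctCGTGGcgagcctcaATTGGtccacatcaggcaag
Dnajc3 (chr14:118937812-118937860, plus strand): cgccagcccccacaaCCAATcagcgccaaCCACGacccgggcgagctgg
Syvn1 (chr19:6046517-6046565, plus strand): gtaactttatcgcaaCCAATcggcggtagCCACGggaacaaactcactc
Derl3 (chr10:75893227-75893275, plus strand): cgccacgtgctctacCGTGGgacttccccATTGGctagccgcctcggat

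Hsp90b1 carried a copy on each strand. The site lay 47 to 65 bases before the RefSeq start in Hspa5 and 26 to 44 bases before it in Syvn1. In the outer copy of Hsp90b1 it was as far as 194 to 212 bases. RefSeq starts differ from the GENCODE gene bounds given below, and the stretches printed for Hspa5 and Asns lie inside those bounds. The stretch printed for Atf3 also lies inside its GENCODE gene (chromosome 1, 191170296 to 191218039, minus strand), far from either end. The shorter relative ERSE-II, searched as ATTGG, 1 base of any kind and CCACG, was found in 1 of the 29 genes, Herpud1, and in 0.0304% of all promoters.
Herpud1 (chr8:94386362-94386402, plus strand): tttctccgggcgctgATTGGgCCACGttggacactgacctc

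The plain XBP1 and ATF6 site TGACGTGG was in 0 of the 29 promoters and in 0.563% of all promoters. The C/EBP-ATF response element, the site known for ATF4 and searched as TGATGNAA, was in 4 of the 29 promoters (13.8%) against 3.45% of all promoters. The 4 sites are shown with the fixed letters in capitals, and those on the other strand read as the reverse complement.
Asns (chr6:7693210-7693247, minus strand): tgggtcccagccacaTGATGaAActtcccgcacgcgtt
Atf3 (chr1:191183421-191183458, minus strand): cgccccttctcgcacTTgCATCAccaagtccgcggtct
Chac1 (chr2:119351034-119351071, plus strand): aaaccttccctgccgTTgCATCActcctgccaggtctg
Herpud1 (chr8:94386302-94386339, plus strand): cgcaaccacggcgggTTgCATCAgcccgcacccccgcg

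All 9 genes with an ERSE had a log2 fold change above 0, with a median of 0.22, a range of 0.03 to 1.43 and an unadjusted p below 0.05 for 4 of them; the lowest, Dnajc3, lay below 0 with total-count scaling and without DKO 1 or WT 3. The 20 genes with a promoter entry and no ERSE had 14 values above 0, a median of 0.12, a range of -0.22 to 0.67 and 3 such p-values. Of 8 other tested genes with an ERSE, 4 lay above 0 and 4 below, with a median of 0.05, and one of them, Alg12 (-0.04), shares its upstream region with Creld2. EdgeR called 0 genes in each of these sets. Among all 10691 tested genes with a promoter entry, 5250 lay above 0 and edgeR called 103. Of the same genes, 925 had an unadjusted p below 0.05 with a higher DKO mean. The split by ERSE was made after the values were known, and a match says only that the letters are there.

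The targeted genes stood lower in DKO in every library. Stim1 had 107, 143 and 125 counts per 1e6 (CPM, scaled by TMM) in DKO 1, 3 and 4, against 413, 492 and 362 CPM in WT 1, 2 and 3, a log2 fold change of -1.75 (SE 0.15, with an adjusted p of 0.00553 by edgeR). Stim2 had 105, 136 and 125 CPM in DKO, against 229, 310 and 245 CPM in WT, a log2 fold change of -1.10 (SE 0.14, with an adjusted p of 0.018 by edgeR). The groups did not overlap for either gene, and the remaining counts may include exons outside the deleted part. Without DKO 1, DKO 3, DKO 4 or WT 3 the adjusted p of Stim2 lay between 0.0574 and 0.0987.

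Total counts ran from 18609759 to 22829411 per library, and edgeR called 153 genes, 108 higher and 45 lower in DKO, or 21 to 335 with 1 library left out. The enamel matrix genes Amelx and Ambn, which define the ameloblast, were each at 28849 CPM or more in every library, in keeping with the tissue label. The summed level of 10 mesenchyme markers was 10634 to 13215 CPM in DKO and 6865 to 11289 CPM in WT, lowest in WT 2; all 10 log2 fold changes were above 0 (median 0.32), with 0 at an unadjusted p below 0.05 and 0 called by edgeR, DESeq2 or limma. The sum of 9 leukocyte markers was 299 to 450 CPM in DKO and 208 to 298 CPM in WT (9 of 9 above 0, median 0.41), with 6 at an unadjusted p below 0.05 and 4 without overlap between the groups; edgeR and limma called 0 of them and DESeq2 called Adgre1, C1qb and Lyz2 higher. The sum of 9 endothelial markers was 331 to 358 CPM in DKO and 235 to 336 CPM in WT (8 of 9 above 0, median 0.29), with 2 at an unadjusted p below 0.05; edgeR and limma called 0 and DESeq2 called Emcn higher. The sum of 8 oral keratinocyte markers was 67.6 to 119 CPM in DKO and 256 to 449 CPM in WT. Most of it was Krt6a, at 60.6 to 109 CPM in DKO and 230 to 418 CPM in WT. Krt6a fell (edgeR adjusted p = 0.0216, not below 0.05 without DKO 3, DKO 4 or WT 3). DESeq2 called Krt4, Krt6a and Krt16 lower. The groups overlapped for Krt4 (0.764 CPM in WT 1, 0.803 CPM in DKO 1) and not for Krt16. No marker was at 0 in all libraries. Xist was above 100 CPM in DKO 1, WT 1 and WT 2, so libraries of both sexes were in each group. In whole-tissue RNA, fewer cells of a type and less RNA per cell cannot be told apart, and the part of these markers in the values below was not tested.

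Per transcript length, the chaperones led the 33 genes. Calr was highest, at 453 ± 50.0 FPKM (fragments per kilobase of transcript per 1e6 fragments) in DKO and 388 ± 17.0 FPKM in WT (SD, n = 3 each). Hspa5, the master chaperone BiP, followed with 250 ± 52.2 FPKM in DKO and 218 ± 23.4 FPKM in WT, then Pdia3 with 211 ± 28.2 and Hsp90b1 with 218 ± 21.5 FPKM in DKO, against 180 ± 14.6 and 173 ± 22.3 FPKM in WT. In the order set by the WT means, Calr and Hspa5 were each separate from the next gene over the WT libraries, while the WT ranges of Pdia3 and Hsp90b1 overlapped. The sensors were far lower, at 16.4 ± 1.87 FPKM in DKO and 19.1 ± 2.60 FPKM in WT for Ern1, 12.8 ± 0.922 in DKO and 13.0 ± 0.838 in WT for Atf6, and 9.80 ± 0.552 in DKO and 8.41 ± 0.447 in WT for Eif2ak3. The order ended with Atf3 at 5.01 FPKM in DKO and 4.21 in WT, Derl3 at 4.50 in DKO and 1.64 in WT, Trib3 at 0.996 in DKO and 0.590 in WT, and Chac1 at 0.881 in DKO and 0.551 in WT. Of the 32 pairs of neighbours in this order, 22 overlapped over the WT libraries, among them all those from Dnajc3 down to Atf6.

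**Figure D2:**
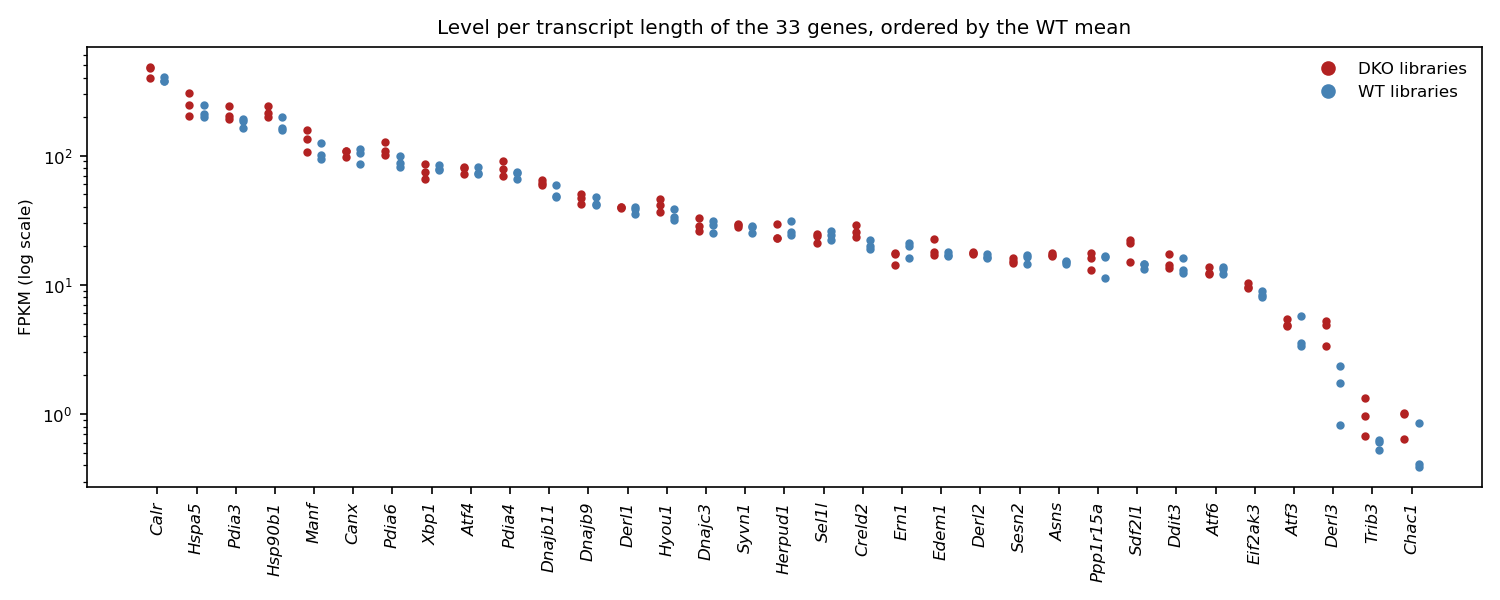
FPKM (log scale) of the 33 genes in each DKO and WT library, 1 point per library, ordered by the WT mean. The levels span from 388 FPKM for Calr to 0.551 FPKM for Chac1 in WT means, and only the Derl3 points show a wide gap between the groups.

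By counts, 27 of the 33 genes lay above the median tested gene and 13 in its top 10%. For 24 of them the coefficient of variation was smaller over the DKO libraries than over the WT libraries. Within DKO, replicate 1 was the highest library for 20 genes and replicate 3 the lowest for 22, and within WT replicate 2 was the highest for 18. The summed level of the 33 genes was 5424, 4722 and 5072 CPM in DKO 1, 3 and 4, against 4455, 4950 and 4302 CPM in WT 1, 2 and 3. DKO 3 thus lay below WT 2, and the sums overlapped. Amelx and Ambn were also highest in DKO 3, at 81133 and 90060 CPM, while the mean log2 CPM over 14 ameloblast markers, less the WT mean, was 0.12, 0.10 and -0.03 in DKO 1, 3 and 4, against -0.08, 0.37 and -0.29 in WT 1, 2 and 3.

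None of the 3 sensor genes or the factors they control passed the test, and 1 of them, Eif2ak3, had an unadjusted p below 0.05. Atf6 (ENSMUSG00000026663, chromosome 1, 170704674 to 170867771, minus strand, GRCm38) had 106, 97.3 and 96.5 CPM in DKO and 107, 105 and 93.7 CPM in WT, a log2 fold change of -0.03 (SE 0.08). Ern1 (ENSMUSG00000020715, chromosome 11, 106394650 to 106487852, minus strand) had 121, 131 and 98.1 CPM in DKO and 114, 152 and 142 CPM in WT, a log2 fold change of -0.22 (SE 0.14, with an adjusted p of 0.455 by edgeR). Both genes had overlapping groups, and the epithelial IRE1 paralog Ern2 reached at most 0.16 CPM in any library. Eif2ak3 (ENSMUSG00000031668, chromosome 6, 70844515 to 70905245, plus strand) had 42.8, 40.9 and 40.8 CPM in DKO and 37.1, 36.6 and 33.3 CPM in WT. Its groups did not overlap, but the log2 fold change of 0.22 (SE 0.07) did not pass, with an edgeR adjusted p of 0.192 (unadjusted 0.0194). An unstranded kit cannot part its reads from the overlapping gene Gm43292, which shares 221 bases of exon on the other strand.

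Xbp1 (ENSMUSG00000020484, chromosome 11, 5520659 to 5525893, plus strand) had 174, 142 and 157 CPM in DKO and 159, 166 and 170 CPM in WT, a log2 fold change of -0.07 (SE 0.09). These are counts over the whole gene, so they hold the mRNA with and without the 26 bases that IRE1 removes, and the spliced share was not measured. The removed bases are shown in capitals with the coding bases around them; they lie inside an annotated coding exon (GENCODE vM21, GRCm38).
Xbp1 (chr11:5524267-5524322, plus strand): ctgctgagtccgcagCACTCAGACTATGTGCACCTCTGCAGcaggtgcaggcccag

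Of the other factors, Atf4 had 134, 126 and 140 CPM in DKO and 125, 125 and 140 CPM in WT, a log2 fold change of 0.04 (SE 0.08). Ddit3, which encodes the death-linked factor CHOP, had 12.4, 9.58 and 9.95 CPM in DKO and 9.16, 9.89 and 12.5 CPM in WT, a log2 fold change of 0.02 (SE 0.17). Its highest DKO and highest WT libraries were level, and 68 bases of an exon are shared with Mars on the other strand. Atf3, a stress-induced factor, had 10.6, 9.73 and 9.63 CPM in DKO and 11.3, 7.17 and 6.67 CPM in WT, a log2 fold change of 0.25 (SE 0.21). WT 1 was above every DKO library, and WT varied by 30.2% (coefficient of variation). Over the 7 sensors and factors 4 values lay above 0 and 3 below, or 2 to 4 above 0 under other scalings, with a median of 0.02.

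**Figure D3:**
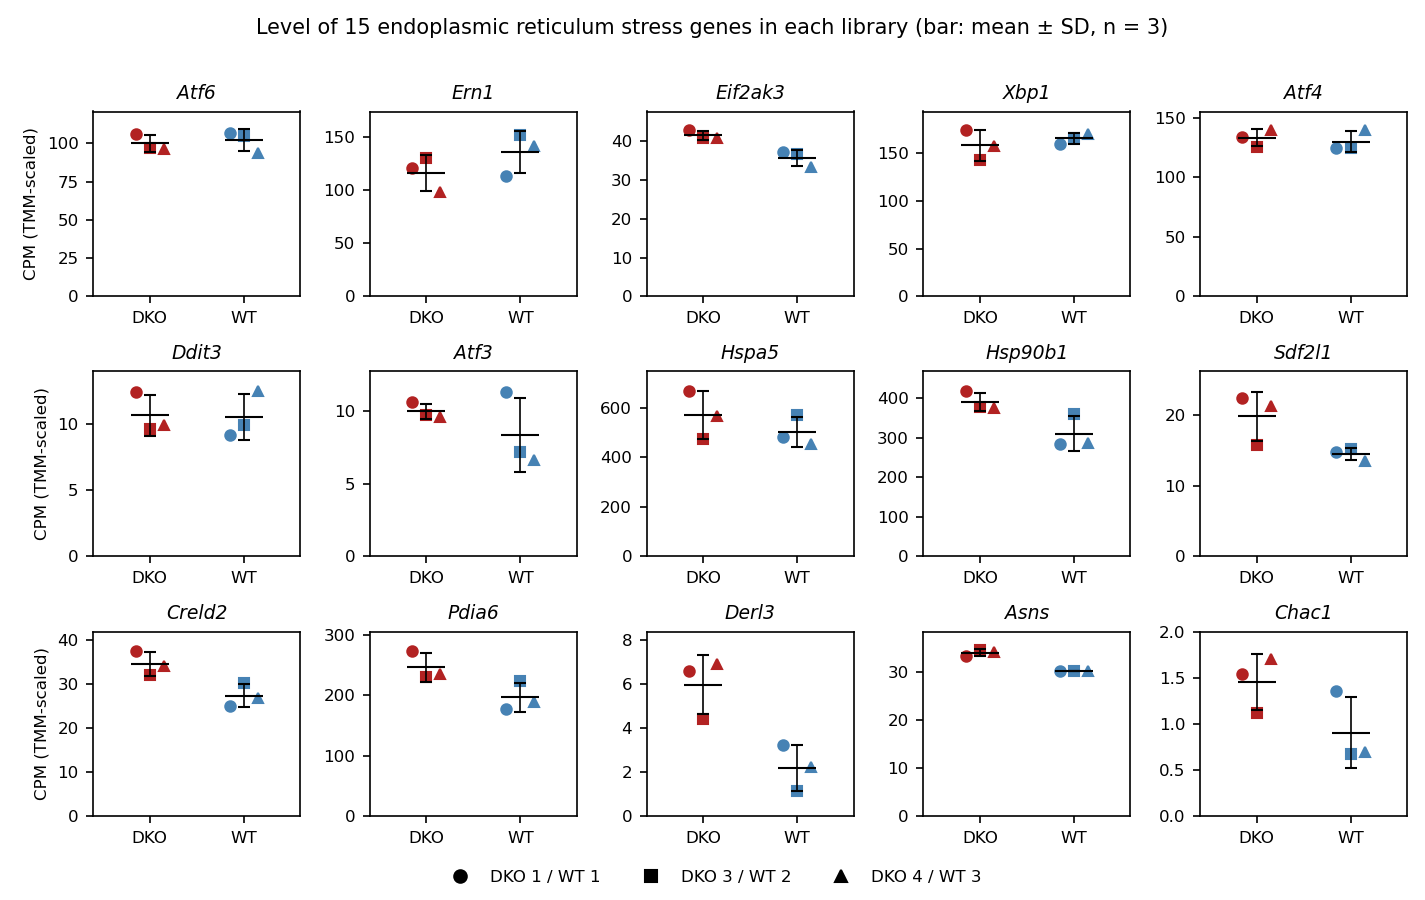
Level in CPM (TMM-scaled) of 15 of the genes in each DKO and WT library, with the mean and SD (n = 3) in black. Eif2ak3, Hsp90b1, Sdf2l1, Creld2, Pdia6, Derl3 and Asns have all DKO points above all WT points, and the other panels overlap.

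The chaperones of the ER lumen leaned one way: all 9 had a log2 fold change above 0 (8 of 9 with total-count scaling and without DKO 1 or WT 3, where Dnajc3 lay below 0), with a median of 0.23 and 3 at an unadjusted p below 0.05, yet 0 passed edgeR, DESeq2 or limma. Hspa5 (ENSMUSG00000026864, chromosome 2, 34771970 to 34777547, plus strand) had 667, 475 and 568 CPM in DKO and 482, 570 and 452 CPM in WT, a log2 fold change of 0.19 (SE 0.15, with an adjusted p of 0.563 by edgeR). DKO 3 lay below WT 1 and WT 2, so BiP did not part the groups. Hsp90b1 (ENSMUSG00000020048, chromosome 10, 86690209 to 86705509, minus strand), the luminal HSP90 also called GRP94, had 418, 379 and 376 CPM in DKO and 285, 361 and 286 CPM in WT. Its groups did not overlap, with a log2 fold change of 0.33 (SE 0.12, with an adjusted p of 0.204 and an unadjusted p of 0.0233 by edgeR), and 270 bases of an exon are shared with the pseudogene 1810014B01Rik on the other strand. Sdf2l1 (ENSMUSG00000022769, chromosome 16, 17130138 to 17132383, minus strand), a partner of BiP, had 22.3, 15.8 and 21.2 CPM in DKO and 14.7, 15.1 and 13.5 CPM in WT. DKO 3 was close to the highest WT library, and the log2 fold change was 0.46 (SE 0.14, with an adjusted p of 0.168 and an unadjusted p of 0.0134 by edgeR).

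Creld2 (ENSMUSG00000023272, chromosome 15, 88819646 to 88826683, plus strand), a secreted disulfide-active protein induced by ER stress, had 37.4, 32.1 and 34.0 CPM in DKO and 25.0, 30.1 and 26.7 CPM in WT. The groups were apart by a small gap between DKO 3 and WT 2, with a log2 fold change of 0.34 (SE 0.10, with an adjusted p of 0.152 and an unadjusted p of 0.0104 by edgeR). The other 5 luminal helpers overlapped between the groups. Hyou1, a large HSP70 relative, averaged 184 ± 15.9 CPM in DKO and 156 ± 20.4 CPM in WT (SD, n = 3 each), a log2 fold change of 0.23. Manf, a secreted stress protein, averaged 76.1 ± 12.4 CPM in DKO and 64.7 ± 11.9 CPM in WT, a log2 fold change of 0.24 (SE 0.16), and its exons overlap those of Dcaf1 by up to 146 bases. The J-domain cochaperones Dnajb11, Dnajb9 and Dnajc3 were at 0.23 (SE 0.10), 0.10 (SE 0.08) and 0.03 (SE 0.11) on the log2 scale. Without WT 2 the median of the luminal chaperones was 0.35. WT 2, the WT library highest in these chaperones, was the lowest in the summed mesenchyme, endothelial and leukocyte markers. The part of such cells in the chaperone values was not tested.

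The lectin chaperones and disulfide isomerases also lay above 0 (5 of 5 under every scaling tried, with Canx at -0.02 without WT 3), with a median of 0.20, 1 gene at an unadjusted p below 0.05 and 0 called by edgeR, DESeq2 or limma. Pdia6 (ENSMUSG00000020571, chromosome 12, 17266545 to 17284770, plus strand), an isomerase that binds BiP and tunes IRE1 signalling, had 273, 230 and 236 CPM in DKO and 177, 224 and 190 CPM in WT. The lowest DKO library was just above WT 2 (50 exon bases are shared with Atp6v1c2), with a log2 fold change of 0.32 (SE 0.11, with an adjusted p of 0.205 and an unadjusted p of 0.0237 by edgeR). Calr, the soluble calcium-binding lectin that buffers much of the ER calcium, had 857, 734 and 886 CPM in DKO and 671, 764 and 692 CPM in WT, a log2 fold change of 0.22 (SE 0.11, with an adjusted p of 0.362 by edgeR). WT 2 was above DKO 3. Its membrane-bound relative Canx had 358, 354 and 363 CPM in DKO and 348, 381 and 301 CPM in WT, a log2 fold change of 0.06 (SE 0.10). The isomerases Pdia3 and Pdia4 were at 0.20 (SE 0.12) and 0.17 (SE 0.10) on the log2 scale, with overlapping groups.

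In ER-associated degradation, which returns misfolded proteins to the cytosol, 1 of 7 genes stood out. Derl3 (ENSMUSG00000009092, chromosome 10, 75893413 to 75895941, plus strand) is the derlin most tied to ER stress and to professional secretory cells. It had 6.57, 4.43 and 6.90 CPM in DKO, against 3.22, 1.16 and 2.22 CPM in WT, from 131, 87 and 129 counts in DKO and 76, 24 and 51 counts in WT. Every DKO library was above every WT library, and WT libraries varied more for Derl3 than for any other of the 33 genes, by 46.8%. The fold was 2.69 and the log2 fold change 1.43 (SE 0.36), with an edgeR adjusted p of 0.109 (unadjusted 0.00434). Over all alternatives the log2 fold change ran from 1.01, with the replicate number as a block, to 1.81. The adjusted p ran from 0.00402 to 0.292. Derl3 passed by DESeq2 (0.00402) and by edgeR with no low-count filter (0.0299), which called 2.19% of all genes. The 200 bases before its RefSeq transcription start are printed because Derl3 has the largest difference of the 33 genes, with the ERSE half-sites in capitals.
Derl3 (chr10:75893198-75893397, plus strand): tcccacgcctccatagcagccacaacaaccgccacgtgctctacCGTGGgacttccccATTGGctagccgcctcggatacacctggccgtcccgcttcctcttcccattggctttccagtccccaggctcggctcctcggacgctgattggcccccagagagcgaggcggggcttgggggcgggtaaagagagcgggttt

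Its paralogs Derl1 and Derl2 were at 0.07 (SE 0.07) and 0.04 (SE 0.08) on the log2 scale; Derl2 shares 231 exon bases with Mis12. Per transcript length Derl3 was the rarest of the family, since Derl1 averaged 40.0 FPKM in DKO and 38.1 FPKM in WT, and Derl2 17.7 FPKM in DKO and 16.5 FPKM in WT. Plasma cells also express Derl3 and Creld2, and markers of B and plasma cells were therefore read beside them. The light chain gene Igkc had 35.7, 51.9 and 67.9 CPM in DKO and 14.4, 24.7 and 23.5 CPM in WT, a log2 fold change of 1.31 (SE 0.27, with an adjusted p of 0.0708 by edgeR), and DESeq2 called it. The heavy chain gene Ighm had 4.06, 4.69 and 16.0 CPM in DKO and 2.29, 3.05 and 5.06 CPM in WT, a log2 fold change of 1.25 (SE 0.56, with an adjusted p of 0.292 by edgeR). Jchain had 0.0502, 0.204 and 3.69 CPM in DKO and 0.212, 0.679 and 0.785 CPM in WT, Cd79a at most 0.749 CPM in DKO and 0.785 CPM in WT, and Mzb1 at most 0.321 CPM in DKO and 0.242 CPM in WT. Pou2af1 was below 1 CPM in every library, and Sdc1, which epithelial cells also express, had a log2 fold change of -0.04. Igkc thus had groups that did not overlap and Ighm had groups that did, while Jchain, Cd79a and Mzb1 stayed below 1 CPM except for Jchain in DKO 4, and the part of such cells in the Derl3 value was not tested.

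The ligase core of the same pathway lay near 0. Syvn1, the ubiquitin ligase HRD1, which shares 91 exon bases with Mrpl49, averaged 91.9 ± 3.81 CPM in DKO and 88.0 ± 6.02 CPM in WT (SD, n = 3 each), and its partner Sel1l averaged 147 ± 9.0 CPM in DKO and 149 ± 13.6 CPM in WT, differences of 0.06 (SE 0.07) and -0.01 (SE 0.09) on the log2 scale. Herpud1, which recruits substrates to that ligase and carries both an ERSE-II and an ATF4-type site, had 46.9, 38.0 and 40.7 CPM in DKO and 54.0, 41.7 and 41.6 CPM in WT, a log2 fold change of -0.13 (SE 0.13). Its groups overlapped. The mannosidase-like Edem1, which marks glycoproteins for disposal, had a log2 fold change of 0.14 (SE 0.07, with an adjusted p of 0.368 by edgeR). Over the 7 degradation genes 5 values were above 0 and the median was 0.06.

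Among the 5 outputs of ATF4, edgeR, DESeq2 and limma called 0. Asns (ENSMUSG00000029752, chromosome 6, 7675169 to 7693254, minus strand), the asparagine synthetase, had 33.2, 34.5 and 34.2 CPM in DKO and 30.1, 30.2 and 30.2 CPM in WT. The libraries of each group lay close together and the groups did not overlap, with a log2 fold change of 0.17 (SE 0.07, with an adjusted p of 0.242 and an unadjusted p of 0.0366 by edgeR). Chac1, which degrades glutathione, had 1.55, 1.12 and 1.71 CPM in DKO and 1.36, 0.679 and 0.697 CPM in WT, from 14 to 32 counts per library, a log2 fold change of 0.67 (SE 0.37, with an adjusted p of 0.386 by edgeR). WT 1 lay above DKO 3. The pseudokinase gene Trib3 had 1.91, 1.43 and 1.77 CPM in DKO and 1.32, 1.31 and 1.22 CPM in WT, a log2 fold change of 0.41 (SE 0.25, with an adjusted p of 0.436 by edgeR), with groups that did not overlap. Ppp1r15a, the phosphatase subunit GADD34 that restores translation, had a log2 fold change of -0.11 (SE 0.13), and the stress-induced Sesn2 of -0.04 (SE 0.07). At this depth Chac1 and Trib3, with means of 24.5 and 30.8 counts, were the 2 genes with fewer than 50 counts on average.

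Counted over all roles, 8 of the 33 genes had every DKO library above every WT library (the 7 genes at an unadjusted p below 0.05 and Trib3), where 11.4% of all tested genes did. The reverse order held for 0 of the 33, against 11.8% of all genes. Leaving out either DKO 1 or WT 3 left 3 genes, in place of 7, at an unadjusted p below 0.05 with a higher DKO mean. Of all tested genes, 6.96% did so without DKO 1 and 8.14% without WT 3. Without WT 2 the count was 10, against 8.23% of all genes. With a term for the libraries with high Xist it was 11, against 7.38% of all genes. The median of the 33 log2 fold changes stayed between 0.12 and 0.19 over the alternatives.

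The arms were compared by their medians, with no test, since genes of an arm share libraries. The ATF6 arm had a median log2 fold change of 0.22, with 8 of 11 genes above 0 and 3 at an unadjusted p below 0.05. The IRE1-XBP1 arm had a median of 0.07, with 9 of 11 above 0 and 2 at such a p, and the PERK-ATF4 arm a median of 0.17, with 7 of 9 above 0 and 2 at such a p. Without the 6 shared genes the medians were 0.23 for ATF6, 0.06 for IRE1-XBP1 and 0.17 for PERK-ATF4. With the PERK-ATF4 arm limited to its 7 genes with a mean of at least 50 counts, its median was 0.04. Leaving out DKO 1 gave the ATF6 arm a median of 0.12, leaving out WT 3 0.16 and leaving out DKO 3 0.30, and that of the IRE1-XBP1 arm was 0.12 without WT 2.

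Per library, the mean over genes of log2 CPM minus the WT mean was 0.32, 0.03 and 0.19 for the ATF6 arm in DKO 1, 3 and 4, against -0.01, 0.11 and -0.11 in WT 1, 2 and 3. The same measure for the IRE1-XBP1 arm was 0.26, 0.16 and 0.19 in DKO and 0.02, 0.01 and -0.03 in WT, and for the PERK-ATF4 arm 0.26, 0.09 and 0.23 in DKO and 0.14, -0.11 and -0.03 in WT. DKO 1 was highest in every arm. DKO 3 lay below WT 2 in the ATF6 arm and below WT 1 in the PERK-ATF4 arm, and the groups were apart in the IRE1-XBP1 arm, to whose mean Derl3 adds more than any other gene.

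**Figure D4:**
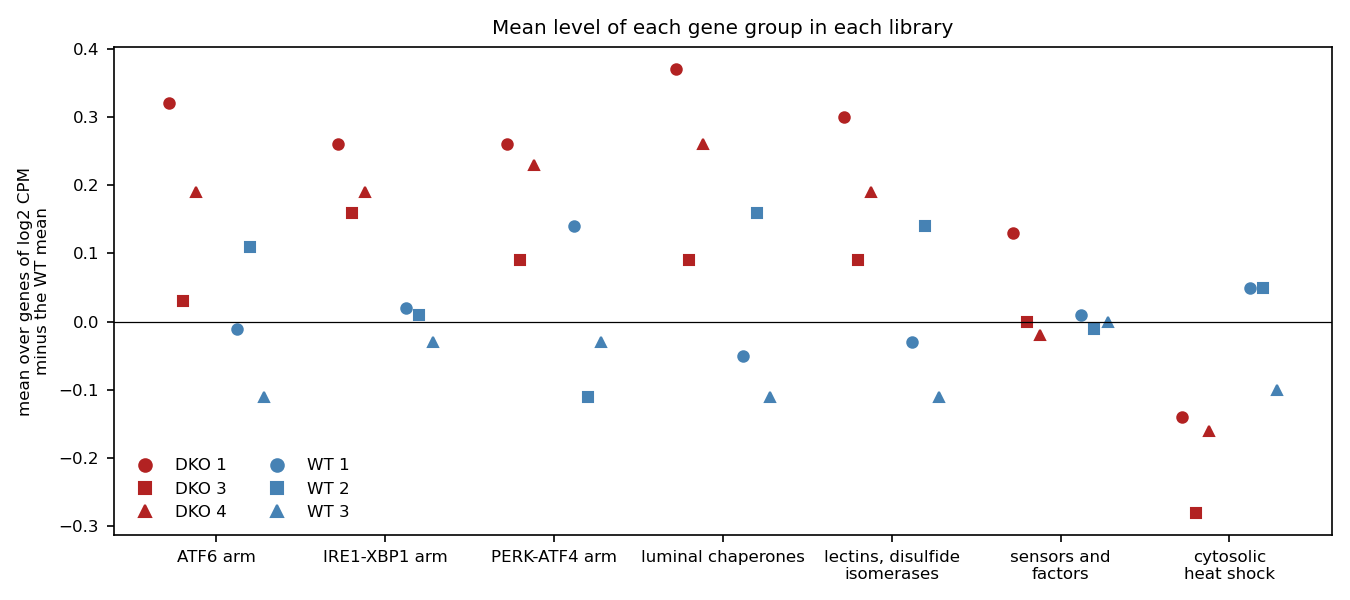
Mean over the genes of each set of log2 CPM minus the WT mean, 1 point per library, for the 3 arms, 3 roles and the cytosolic heat shock genes. Luminal chaperones have DKO 1 at 0.37 and DKO 3 at 0.09, below WT 2 at 0.16; sensors and factors sit near 0; heat shock genes have all DKO points below the WT points.

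Other genes of the secretory route gave a frame for these values. Of 19 oxidative folding and glycan-check genes, 18 had a log2 fold change above 0 (median 0.16), with 6 at an unadjusted p below 0.05 in that direction; edgeR and limma called 0, and DESeq2 called Fkbp10 and P4hb. Fkbp10, a prolyl isomerase known for collagen, had 93.6, 80.8 and 82.7 CPM in DKO and 72.8, 55.3 and 66.3 CPM in WT, a log2 fold change of 0.40 (SE 0.11, with an adjusted p of 0.133 by edgeR). WT 2, its lowest library, was also lowest in the summed mesenchyme, endothelial and leukocyte markers, whose part in the value was not tested. Of 17 translocon and signal peptidase genes 15 lay above 0 (median 0.10, 3 at an unadjusted p below 0.05, 0 called by edgeR, DESeq2 or limma), led by the channel subunit gene Sec61b with 48.6 ± 2.06 CPM in DKO and 40.4 ± 3.46 CPM in WT (SD, n = 3 each). Of 18 further degradation genes 13 lay above 0, with a median of 0.06, none at an unadjusted p below 0.05 and 0 called by the 3 tools; Ube2j1, a conjugating enzyme, had the smallest p, with a log2 fold change of 0.22 (SE 0.10). The genes that process or assist the sensors had 11 of 15 values above 0 and a median of 0.03, with 0 called by the 3 tools and 2 at an unadjusted p below 0.05 in each direction. Nfya, a subunit of the NF-Y that binds CCAAT, was among these with 46.5, 47.2 and 48.8 CPM in DKO and 55.2, 54.0 and 56.4 CPM in WT, a log2 fold change of -0.22 (SE 0.06, with an adjusted p of 0.145 by edgeR).

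Of 21 genes of ER export and retrieval 1 rose by edgeR, 17 had values above 0 and the median was 0.11, with 7 at an unadjusted p below 0.05; limma called 0, and DESeq2 called Creb3l1 and Kdelr3, a retrieval receptor with 35.3, 34.6 and 29.5 CPM in DKO and 23.5, 25.5 and 26.0 CPM in WT (edgeR adjusted p = 0.0959). Creb3l1 (ENSMUSG00000027230), an ER-membrane factor related to ATF6 and known for matrix secretion in bone, had 49.9, 57.4 and 61.3 CPM in DKO and 33.8, 27.5 and 33.9 CPM in WT. It was 1.77-fold higher, a log2 fold change of 0.82 (SE 0.11, with an adjusted p of 0.0216 by edgeR), with every DKO library above every WT library. The call ended without DKO 3, DKO 4 or WT 3, where the adjusted p reached 0.101, and limma on FPKM did not make it. WT 2 was lowest here and in the summed mesenchyme, endothelial and leukocyte markers. The mesenchyme sums overlapped between the groups, and the part of such cells in the Creb3l1 value was not tested. Of the ATF4 targets in amino acid supply, 13 of 22 tested genes lay above 0 with a median of 0.02; edgeR and limma called 0, with 3 higher and 2 lower at an unadjusted p below 0.05, and DESeq2 called Mthfd2 and Slc3a2. Mthfd2, a mitochondrial folate enzyme, had 7.42, 6.93 and 6.47 CPM in DKO and 3.31, 3.78 and 4.18 CPM in WT, a log2 fold change of 0.88 (SE 0.16, with an adjusted p of 0.0522 by edgeR).

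The chaperones of the cytosol lay on the other side of 0. Of 11 cytosolic heat shock genes 10 had a log2 fold change below 0 (all but Hsf1, at 0.01; 11 of 11 with total-count scaling), with a median of -0.18 and 4 at an unadjusted p below 0.05, all lower in DKO. EdgeR and limma called 0 of them and DESeq2 called Hsph1. Hsph1, which recharges HSP70, had 78.6, 58.7 and 70.0 CPM in DKO and 104, 108 and 82.9 CPM in WT, a log2 fold change of -0.51 (SE 0.13, with an adjusted p of 0.123 by edgeR). Its groups did not overlap. The median for these genes stayed between -0.23 and -0.14 over the alternatives, while that of the luminal chaperones stayed between 0.17 and 0.35.

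**Figure D5:**
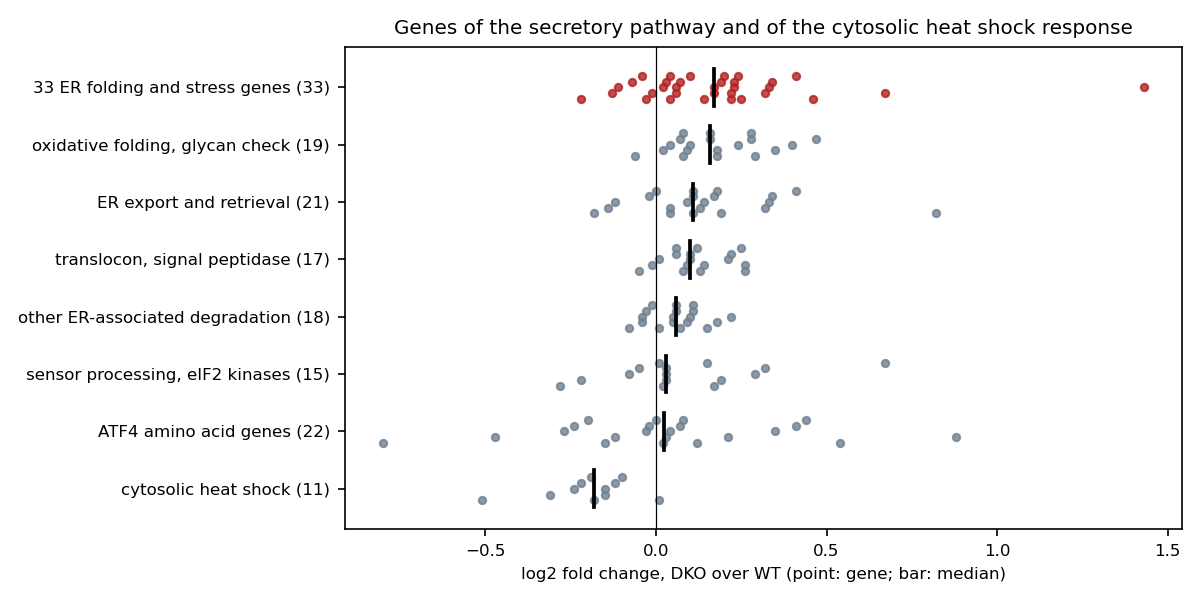
Log2 fold change, DKO over WT, of each tested gene (point) in the 33 ER genes, 6 other lists of the secretory route and its stress response, and the cytosolic heat shock genes, with the list median (bar). Medians run from 0.17 for the 33 genes to -0.18 for the heat shock genes; Derl3 at 1.43 and Creb3l1 at 0.82 are the highest values of their lists.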

How the data were processed

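The members, the arms and the gene lists were chosen with earlier results of these data known. Each library has a deposited table of raw whole-number counts per Ensembl gene and a deposited table of FPKM, in the layout that Cufflinks writes, per the file headers. The submitters' processing notes name HTSeq, Cufflinks 2.2, Trimmomatic 0.32 and the build GRCm38, and which aligner, gene annotation and counting options were used is not given in the sources read here. The library kit (TruSeq RNA v2, per the labels' protocols) does not mark strand. Among the 46603 genes counted, 0 rows lacked a gene name, and 46406 had a symbol in the FPKM tables.

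The raw counts were tested, DKO over WT, in edgeR 4.0.16 (R 4.3.3) with its quasi-likelihood fit, TMM factors and filterByExpr but without covariates; Benjamini-Hochberg adjustment ran over all 14721 tested genes. The test was tried first on simulated counts. No 2 libraries of a group agreed within sampling noise. Alternatives were other scalings and low-count filters, the DESeq2 1.42.0 Wald test, limma 3.58.1 with a trend on log2(FPKM + 1) and log2(FPKM + 0.1) with FPKM of 1 or more in 3 libraries or no filter, the replicate number as a block, an indicator of Xist over 100 CPM as covariate, and each library left out. In the block fit only the replicate numbers found in both groups inform the DKO over WT difference. The exact permutation p of Stim1 and of Stim2 was 0.1, the smallest that 3 against 3 allows.

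All 33 genes are named. Values per library are given for the 3 sensors, the factors Xbp1, Atf4, Ddit3 and Atf3, the 2 largest log2 fold changes of each arm with a mean of at least 50 counts, every gene at an unadjusted p below 0.05 and the gene most variable in WT; those of Hspa5, Calr, Canx, Herpud1, Chac1 and Trib3 were added after their values were seen. From each other list, up to 2 called genes or else the 1 with the smallest p are named (1 gene is not reported here), and Ern2, P4hb, Slc3a2, Hsf1, Krt4, Krt16, Kdelr3, Adgre1, Lyz2, Ighm, Jchain, Cd79a, Mzb1, Pou2af1, Sdc1, Sp7, Amelx, Ambn and Alg12 were added after seeing their values. Positions are 1-based, from GENCODE vM21 (GRCm38), promoters from RefSeq (GRCm38.p6). Fragments carry no molecular identifiers, so counts are not independent molecules.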

Additional observations from a re-analysis of the deposited data

How the results depend on the processing

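Of 588 values of single genes under the 18 alternatives, 586 stayed on the same side of the threshold and 2 passed it, both for Derl3, so 1 of the 33 genes was called with no low-count filter and 1 by the DESeq2 Wald test. The sign changed in 25 values of 11 genes, none of them called. The count over all genes, 153, was 554 with no low-count filter, 826 by DESeq2, 77 by limma on log2(FPKM + 1), 77 on log2(FPKM + 0.1), 11 on log2(FPKM + 1) with no filter and 71 with the Xist term; it ran from 21 without DKO 4 to 335 without WT 2. The median of the IRE1-XBP1 arm was 0.02 with total counts, 0.13 with the replicate block, 0.12 with the Xist term and 0.07 to 0.12 with 1 library left out, and that of the PERK-ATF4 arm was 0.04 with a mean of at least 50 counts, where 7 genes remained. Stim2 missed the threshold on log2(FPKM + 1) with no filter (-1.31, adjusted p = 0.126) and with the Xist term (-1.13, 0.0557), and its log2 fold change ran from -1.18 to -0.96 without 1 library. The causes were not tested.

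DKO and WT share the replicate numbers 1 and 3 only, and the deviations of same-numbered libraries correlated by 0.189 and 0. Between differently numbered libraries the correlation ran from -0.202 (DKO 4 and WT 2) to 0.198 (DKO 4 and WT 3). The libraries thus share a number and no pairing is shown. With the number as a block 328 genes were called, 132 higher and 196 lower, and 0 of the 33. In that fit a library whose number occurs in 1 group only adds nothing to the DKO over WT difference. The log2 fold changes and medians given for the block therefore rest on the libraries numbered 1 and 3 of each group. Depth limits Chac1 and Trib3 most, at means of 24.5 and 30.8 counts.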

Other observations

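The other marker lists gave the following values, with no comparison built on them. Of 8 tested odontoblast and osteoblast markers 1 fell, the osteocalcin gene Bglap2, with 2.61, 1.99 and 3.91 CPM in DKO and 20.9, 15.5 and 20.8 CPM in WT (edgeR adjusted p = 0.00744, called in 6 of 6 fits with a library left out); its near-identical neighbour Bglap may share its reads, and DESeq2 also called Sp7 higher. Neutrophil markers summed to 11 to 23.8 CPM in DKO and 2.93 to 80.3 CPM in WT, skeletal muscle markers to 57.2 to 164 CPM in DKO and 73.6 to 322 CPM in WT, and erythroid markers to 134 to 392 CPM in DKO and 140 to 435 CPM in WT. Those 3 lists overlapped between the groups, and edgeR, DESeq2 and limma called 0 of their genes, with 0 at an unadjusted p below 0.05.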
